A study of Mus musculus with 1479 samples.

Results

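Cluster 5 and cluster 10 are the classes of sorted mouse bladder mesenchymal cells that carried smooth muscle alpha-actin, Acta2, at a high level, and they are compared here gene by gene. They were taken by the cluster number that the labels give each cell, 76 cells of cluster 5, and 48 paired and 77 further cells of cluster 10, of the 1479 cells of the bladder series in 11 clusters. The cells came from the bladders of adult male mice of 10 to 20 weeks, were sorted one to a well into 6 plates and were sequenced by Smart-seq2, a full-length single-cell RNA-seq method without molecular identifiers. The labels name 5 strains: C57BL6, which carries no reporter, and the lines Acta2GFP, Cspg4dsRED, PdgfraGFP and PdgfrbGFP, each of which carries a fluorescent reporter of the gene in its name. The labels do not say which animal a cell came from, so the spread between animals could not be measured here.

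The classes were compared within a strain and plate wherever both had at least 3 cells. This gave 4 pairs: C57BL6 with 15 cells of cluster 5 and 3 of cluster 10, and PdgfrbGFP on plate 074s with 7 and 4, on plate 515s with 5 and 21, and on plate 881s with 24 and 20. The pairs held 51 cells of cluster 5 and 48 of cluster 10, beside 901 cells of the 9 other clusters, which are named other fibroblasts below. The level of a gene is its mean number of reads per 500000 endogenous reads over the cells of a class in a pair, and 4 values in a row are always in the order C57BL6, 074s, 515s and 881s. Because the cluster numbers were made from the same expression values, the adjusted p-values say how well a difference repeated over the 4 pairs, and they are not independent evidence that the classes exist. The C57BL6 values of cluster 10 rest on 3 cells.

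Smooth muscle cells shorten when calcium activates myosin light chain kinase, which phosphorylates the regulatory light chain of smooth muscle myosin and lets it pull on actin filaments. Mural cells, the pericytes and smooth muscle cells on the outside of blood vessels, use this machinery to set vessel diameter and depend on PDGF and Notch signals from the endothelium. Myofibroblasts are fibroblasts that express smooth muscle actin as well as much extracellular matrix. In the bladder, such cells lie beneath the urothelium, where Hedgehog, Wnt and BMP signals pass between epithelium and stroma.

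The C57BL6 mice carry no reporter, and the study sorted such mice with antibodies to the PDGF receptors alpha or beta. Cells without Pdgfra and Pdgfrb, and cells with an endothelial or immune signature, were dropped by the authors before deposit. The markers fitted both labels in part. Of 18 mural cell markers, 13 were called higher in cluster 10 and none in cluster 5, beside 2.62% and 1.92% of all genes tested, and their summed level was 6968 to 7817 in cluster 10 and 377 to 705 in cluster 5. The other fibroblasts had 462 to 579, a range that overlaps that of cluster 5. Of 12 myofibroblast markers, cluster 5 carried Acta2, Tagln, Tnc, Fn1, Col12a1, Cdh11 and Pdgfra, but Postn was at 9.17, 22, 0 and 2.23, Fap at 3.38, 0.149, 0 and 0.167 and Cthrc1 at 18.3, 0, 0 and 7.11. Lox was at 69.6, 117.1, 111.6 and 174.3 and Itgav at 154.005, 1.8, 1.31 and 40.3. None of these 5 genes was called. The call of Cdh11 ended with sums per strain (edgeR adjusted p = 1). Of the 12, 5 were called higher in cluster 5 and 2, Acta2 and Tagln, higher in cluster 10, and the summed level was 2737 to 3505 in cluster 5, 3972 to 8929 in cluster 10 and 786 to 1083 in the other fibroblasts. Of 6 tested visceral smooth muscle markers, 4 were called higher in cluster 10 and 1, Hhip, higher in cluster 5. The summed level of all 8 markers of that list was 299.3 to 600.2 in cluster 5, most of it Hhip, 531 to 2320.0 in cluster 10 and 54.6 to 81.3 in the other fibroblasts. Urothelial, glial, endothelial, immune and mesothelial markers were low in both classes. The summed level of the 10 urothelial markers was 0 to 5.14 in cluster 5 and 0 to 20.2 in cluster 10, and of the 5 glial and interstitial markers at most 1.08 and 3.44. The 8 endothelial markers summed to 2.54 to 63.8 and 15.3 to 123.99, the 8 immune markers to 2.13 to 49.3 and 3.88 to 31.6, and the 5 mesothelial markers to 0 to 1.24 and 0.113 to 63.2. Of these 36 genes, 7 had enough reads to be tested, and none was called. The defining markers Epcam and Krt5 of urothelium and Sox10 of glia stayed below 1 read per 500000 in every pair of both classes, and Ptprc of leukocytes was at 0 in cluster 5 and at 1.46, 3.73, 0 and 0 in cluster 10. The highest sums for urothelial, immune and mesothelial markers in cluster 10 were those of the 3 C57BL6 cells.

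Of 12339 genes tested, 560 (4.54%) were called between the classes, at an edgeR adjusted p under 0.05 and a difference of at least 4-fold. Of the genes tested, 2.62% were called higher in cluster 10 and 1.92% higher in cluster 5. The direction was the same in all 4 pairs for 507 of the 560. Leaving out the C57BL6 pair gave 472 calls and leaving out plate 074s 407, whereas the count was 61.6% of the 560 without plate 515s and 57.3% without plate 881s. Where leaving out a pair or another processing ended the call of a named gene, this is given beside the gene. Sums per strain pool the plates of a strain and add Cspg4dsRED, which gives 3 strains, thinned cells were brought down to 50000 reads each, and the filter leaves out genes with few reads. The contractile and ion handling lists held 36 calls among 66 genes tested, 34 of them higher in cluster 10, against 4.54% over all genes. The signalling lists held 44 calls, 31.7% of their genes tested, 21 higher in cluster 10 and 23 higher in cluster 5. The median difference over all genes was -0.28 on the log2 scale, so a difference near that value is no difference relative to the bulk of genes.

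**Figure D1:**
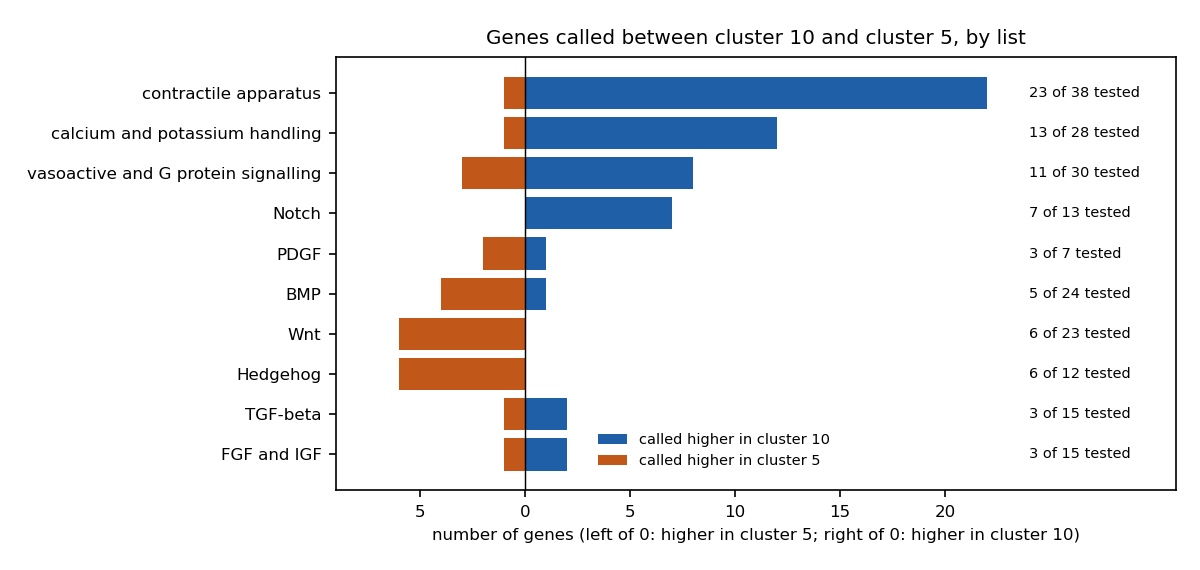
Number of genes called in each contractile or signalling list, from 0 outwards, with bars to the right for genes higher in cluster 10 and bars to the left for genes higher in cluster 5, and the number called of the number tested at the right. Contractile, ion handling, vasoactive and Notch genes lay mostly to the right, and all 6 called Wnt genes and all 6 called Hedgehog genes lay to the left.

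Cluster 5 held Acta2, Myl9 and Myh11 below their level in cluster 10 and above that in the other fibroblasts in every pair. Acta2 was at 332.4, 837, 268.2 and 563 in cluster 5, at 3289, 3019, 6759 and 2600.2 in cluster 10 and at 43.3 to 68 in the other fibroblasts. The ranges of the classes did not overlap, and the fitted log2 difference was 3.28 ± 0.31 (SE, 4 pairs, edgeR adjusted p = 7.18e-12). Myl9, the regulatory myosin light chain, was at 381, 555, 413 and 497 in cluster 5, at 1774, 2100.4, 3427 and 1712 in cluster 10 and at 28.6 to 55.5 in the other fibroblasts. With a log2 difference of 2.44 ± 0.30 (edgeR adjusted p = 2.46e-08) it differed less than Acta2. Tagln, an actin-binding protein of smooth muscle, was at 76.5, 176.2, 116.7 and 69.1 in cluster 5, at 791, 1386, 1941 and 1171 in cluster 10 and at 10.6 to 19.6 in the other fibroblasts. Mylk, the light chain kinase, was at 85.7, 257.3, 46.7 and 179.01 in cluster 5, at 916, 1558, 1264 and 1163 in cluster 10 and at 14.1 to 44.8 in the other fibroblasts. These differences were larger, 4.01 ± 0.41 for Tagln and 3.51 ± 0.42 for Mylk (edgeR adjusted p = 1.09e-10 and 1.21e-08). Myh11, the smooth muscle myosin heavy chain that does the pulling, was at 21.6, 138.9, 21.1 and 62.6 in cluster 5, at 1426, 1422, 2070.2 and 1369 in cluster 10 and at 0.395 to 5.42 in the other fibroblasts. Its log2 difference of 5.48 ± 0.44 (edgeR adjusted p = 5.63e-14) was the largest of these 5 genes. Tpm1, Tpm2, Smtn and Flna, which stabilise or link the actin filaments, were called higher in cluster 10 as well, with log2 differences of 2.43, 2.37, 2.47 and 2.36, and none of them was below 85.4 in any cluster 5 pair. The other fibroblasts had 94.9 to 147.1 of Tpm1, 43.3 to 83.4 of Tpm2, 64.9 to 80.6 of Smtn and 104.7 to 162.7 of Flna, so that Smtn in the C57BL6 pair was at nearly the same level in cluster 5 as in the other fibroblasts. Levels are per gene and not per length. On the opposite strand, Gm48529 shares 62.42% of the exon bases of Tagln and Gm11946 16.3% of those of Smtn, and reads of such overlapping genes could not be told apart. Per kilobase of exon, Acta2 averaged 227.8 reads in cluster 5 and 1784 in cluster 10, Myl9 397 and 1939, and Myh11 8.03 and 206.8. Myl9 lost its call without plate 515s (log2 difference 1.96) and Tpm2 without plate 515s (log2 difference 1.98). Reads that fit more than one of the near-identical actin genes Acta2, Actg2 and Actc1 may have been split between them.

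**Figure D2:**
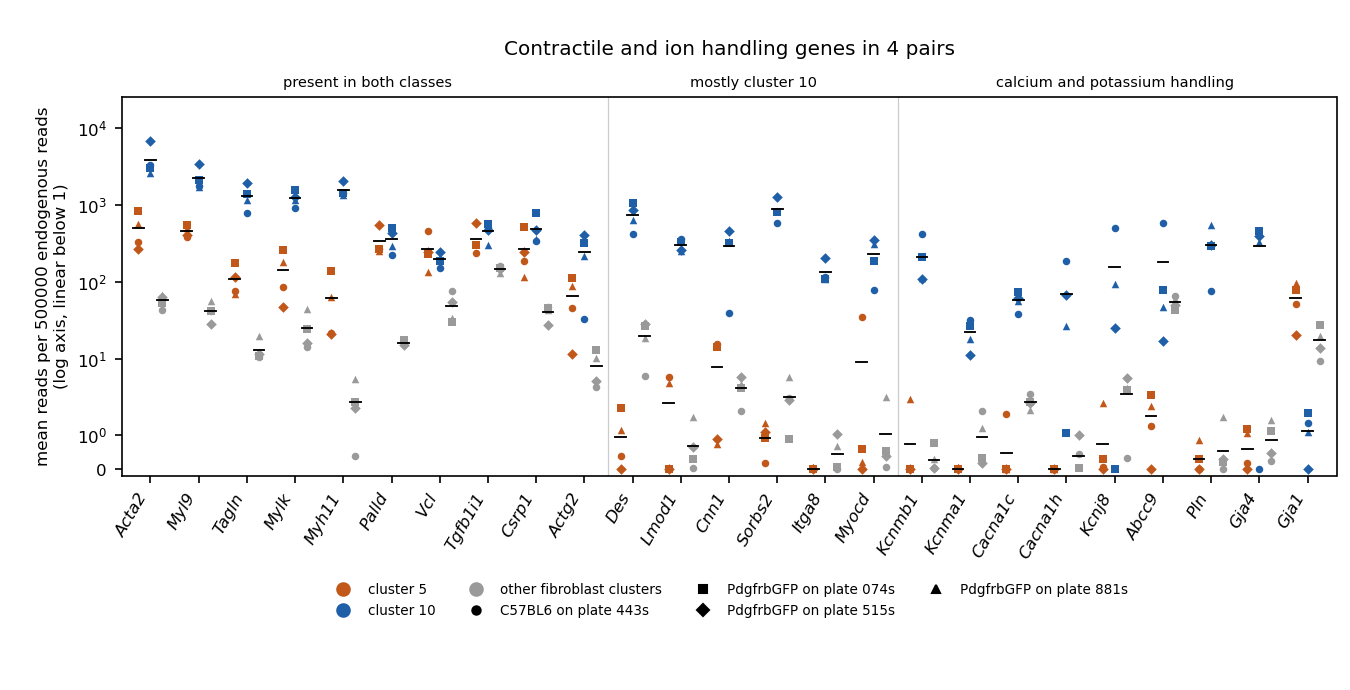
Mean level of contractile and ion handling genes, in reads per 500000 endogenous reads on a logarithmic axis that is linear below 1, in cluster 5 (orange), cluster 10 (blue) and the other fibroblasts (grey), with 1 symbol for each of the 4 pairs and a bar at their mean. Acta2, Myl9, Tagln, Mylk and Myh11 stood at an intermediate level in cluster 5, Palld, Vcl and Tgfb1i1 overlapped between the classes, and Des, Sorbs2 and Pln were at or near 0 in cluster 5.

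Single cells showed the same order. After each cell was thinned to 50000 endogenous reads, at least 10 reads of Acta2 were found in 49 of 76 cells of cluster 5 (64.5%, exact 95% interval 52.7 to 75.1), in every cell of cluster 10 (at least 97.1% by the same interval) and in 16.4% of 1272 other fibroblasts (14.4 to 18.5). These shares cover the cells of all plates, and the 1272 are the 1278 other fibroblasts there without the 6 under that depth. Unthinned, the level per cell ran from 0 through a median of 379 to 1909 in cluster 5, and from 224.9 through 5158 to 10899.5 in cluster 10. No cell of cluster 5 reached the median of cluster 10, and 4 cells of cluster 10 lay below the highest cell of cluster 5. Tnc, the matrix glycoprotein tenascin C, had 10 reads in 61 cells of cluster 5, in 1 cell of cluster 10 and in 0 of 1272 other fibroblasts, where the limit of 3 counts is 0.236% (exact upper bound 0.29%). In cluster 5, 44 cells held both Acta2 and Tnc, 17 held Tnc without Acta2, 5 held Acta2 without Tnc and 10 held neither. Here a cell without a gene is one under 10 thinned reads of it, and 61 of the 76 cells had at least 1 thinned read of Acta2. Myh11 had 10 reads in 19 of 76 cells of cluster 5, 18 of which also held Acta2, in 95.2% of cluster 10 and in 4 of 1272 other fibroblasts. Of the 19, none had 10 reads of the mural genes Rgs5, Notch3, Des or Mcam. In the reverse direction, 3 cells of cluster 10 had 10 reads of 1 of Tnc, Pdgfra, Bmp5 and Dkk2, and no cell had 10 reads of more than 1 of them. No cell of either class thus held a set of the other class's genes, and doublets were not called otherwise. A mean level does not say how many cells hold a gene. Of the called genes named here, 48 had 10 thinned reads in under 50% of the cells of the class with the higher level. The cells are not replicates, so these intervals cover counting error only.

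**Figure D3:**
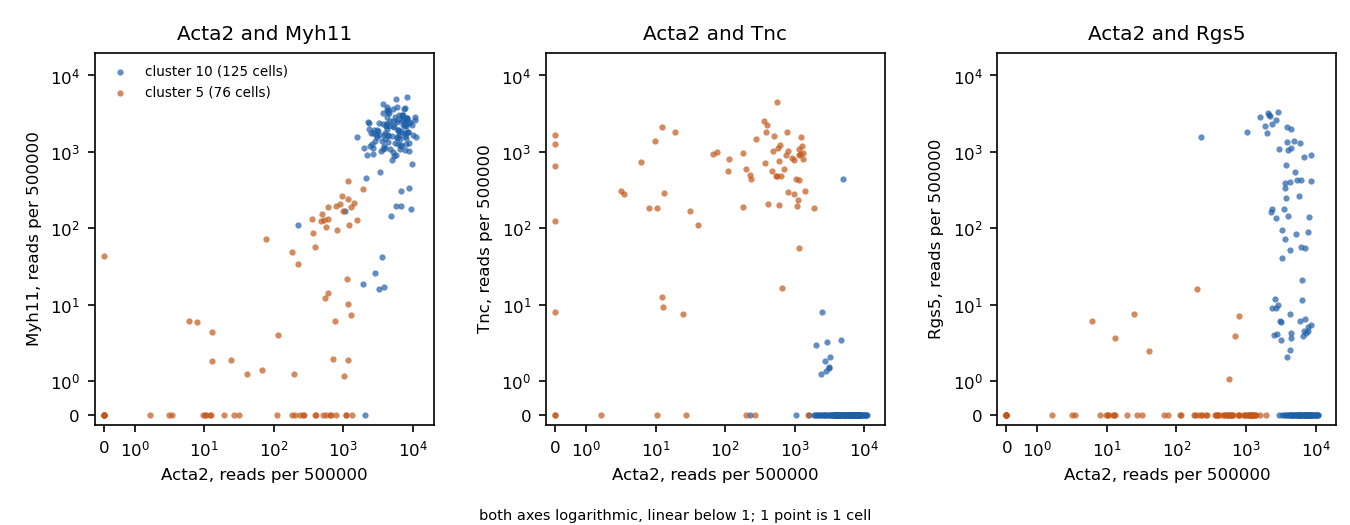
Level of Myh11, Tnc and Rgs5 against that of Acta2 in each cell of cluster 5 (orange, 76 cells) and of cluster 10 (blue), in reads per 500000 endogenous reads on axes that are logarithmic and linear below 1. Cells of cluster 5 spread over Acta2 from 0 to 1909 with high Tnc and almost no Rgs5, and cells of cluster 10 had high Acta2 and Myh11 and almost no Tnc.

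Smooth muscle genes are known for CArG boxes, the binding motif of serum response factor. The start regions of 4 contractile genes that hold a box, or near matches to it, are shown, Acta2, Myl9 and Vcl, which were found in both classes, and Filip1l, which was high in cluster 10. They were chosen for these matches and do not stand for the whole list. Each window runs from 250 bases before to 50 bases after the RefSeq start of the gene (GRCm38.p6), is written in the direction of the gene, and has the boxes in capitals. The motif is palindromic, so a match on one strand is a match on both. Acta2 lies on the minus strand at chr19:34255324-34255623, Myl9 on the plus strand at chr2:156775214-156775513, Vcl on the plus strand at chr14:20929148-20929447 and Filip1l on the plus strand at chr16:57548992-57549291. Myl9, Vcl and Filip1l hold 1 full box each, which starts at -161, -227 and -62 relative to the start of the gene, and the 2 boxes of Acta2, which start at -84 and -34, each have 1 letter off the motif. A further match of Myl9 with 1 letter off, which starts at -99, is left in lower case.
Acta2: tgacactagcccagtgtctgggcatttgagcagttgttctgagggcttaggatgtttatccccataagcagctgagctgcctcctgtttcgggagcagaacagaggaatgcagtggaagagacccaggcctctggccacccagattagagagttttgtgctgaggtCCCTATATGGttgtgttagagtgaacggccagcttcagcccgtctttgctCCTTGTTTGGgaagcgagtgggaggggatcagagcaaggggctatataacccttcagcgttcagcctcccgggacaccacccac
Myl9: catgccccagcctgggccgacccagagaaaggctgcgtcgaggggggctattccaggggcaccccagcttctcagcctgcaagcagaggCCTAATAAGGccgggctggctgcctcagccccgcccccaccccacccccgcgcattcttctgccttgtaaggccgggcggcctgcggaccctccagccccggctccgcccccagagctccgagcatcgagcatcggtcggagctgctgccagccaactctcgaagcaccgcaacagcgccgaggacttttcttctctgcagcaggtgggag
Vcl: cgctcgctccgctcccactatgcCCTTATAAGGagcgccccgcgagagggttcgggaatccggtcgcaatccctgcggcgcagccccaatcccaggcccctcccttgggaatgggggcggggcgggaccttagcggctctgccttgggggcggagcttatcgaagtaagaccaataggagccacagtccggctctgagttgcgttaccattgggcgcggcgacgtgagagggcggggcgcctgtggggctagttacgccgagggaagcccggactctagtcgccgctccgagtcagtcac
Filip1l: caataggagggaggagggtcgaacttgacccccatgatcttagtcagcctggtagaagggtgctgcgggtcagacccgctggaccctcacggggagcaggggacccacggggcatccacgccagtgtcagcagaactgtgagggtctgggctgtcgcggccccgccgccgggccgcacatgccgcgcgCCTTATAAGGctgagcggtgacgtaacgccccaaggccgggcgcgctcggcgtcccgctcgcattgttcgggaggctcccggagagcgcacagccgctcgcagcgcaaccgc
A full box was found in 6 of the 38 windows of the contractile list, at 6 of 31 genes with a window, and in 1.63% of the 32851 windows of all genes. With 1 letter off allowed, the shares were 26.3% and 9.98%. In the calcium and potassium handling list it was found in 1 of 28 windows (3.57%). Of the 6 contractile genes with a full box, Myl9, Myl6 and Filip1l were called higher in cluster 10 and none higher in cluster 5. In the whole contractile list 22 of 38 genes were called higher in cluster 10, and 2.62% of all genes tested, so the genes with a box did not stand out from their list. Vcl was carried by both, and Srf and Actc1 were not called, with log2 differences of 0.61 and 2.29. Myl6 lost its call without plate 515s (log2 difference 1.92) and without plate 881s (edgeR adjusted p = 0.0563). Filip1l lost its call without the C57BL6 pair (edgeR adjusted p = 0.0622). A match in these windows is a description of the sequence only.

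A smaller group of contractile genes was carried by both classes. Palld, an actin-bundling protein of stress fibres, was at 271.4, 270.03, 554 and 255.03 in cluster 5, at 226.1, 508, 429 and 293.7 in cluster 10 and at 14.8 to 17.3 in the other fibroblasts. Its log2 difference was 0.42 with a 95% interval of -0.57 to 1.40, inside the 4-fold limit that defines a gene carried by both. Vcl, which anchors actin at cell junctions, was at 457, 230.05, 245.1 and 135.5 in cluster 5 and at 152.02, 185.3, 247.8 and 212.7 in cluster 10, and Tgfb1i1, a focal adhesion adaptor, was at 236.99, 300.2, 581 and 307.5 in cluster 5 and at 502, 565, 477 and 306.5 in cluster 10. Their differences were 0.09 (-1.16 to 1.34) and 0.66 (-0.26 to 1.58), and the ranges of the classes overlapped. Ap3m1, on the other strand, shares 25.5% of the exon bases of Vcl, and the library kit did not mark strand. For Csrp1, a muscle LIM protein, and Actg2, the actin of visceral smooth muscle, the difference was neither called nor small. Csrp1 was at 188.9, 518, 244.2 and 115.4 in cluster 5 and at 345.2, 799, 473 and 363 in cluster 10, with a log2 difference of 1.32 (0.36 to 2.28, edgeR adjusted p = 0.113). Actg2 was at 46.1, 112.7, 11.5 and 88.2 in cluster 5 and at 32.6, 319.5, 403 and 216.5 in cluster 10, with 1.90 (0.21 to 3.59, edgeR adjusted p = 0.247), and was higher in cluster 10 in the 3 PdgfrbGFP pairs and lower in the C57BL6 pair. Over all genes, 884 had a level of at least 20 in both classes of every pair, and 310 of the genes tested (2.51%) also had an interval inside 4-fold. That count was 674 without the C57BL6 pair, and 53.5%, 68.7% and 30% of 310 without plates 074s, 515s and 881s, so it depends on the pairs. Only 5 genes reached this level in both classes and were at least 4-fold lower in the other fibroblasts in every pair. They were Acta2, Myl9, Myh11, Palld and Sept4, a septin, which was at 52.3, 57.2, 80.5 and 75.6 in cluster 5 and at 364, 205.7, 28.7 and 73.3 in cluster 10.

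Another group of contractile genes was present in cluster 10 and close to absent from cluster 5. Des, the muscle intermediate filament desmin, was at 0.401, 2.23, 0 and 1.19 in cluster 5 and at 423, 1074, 858 and 637 in cluster 10. The other fibroblasts had 5.85 to 27.8, more than cluster 5 in every pair. Sorbs2, a Z-band adaptor, was at 0.182, 0.904, 1.11 and 1.44 in cluster 5 and at 592, 803, 1281 and 843 in cluster 10, and Lmod1, an actin nucleator of smooth muscle, at 5.74, 0, 0 and 4.73 in cluster 5 and at 356, 326.8, 257.6 and 251.6 in cluster 10. The log2 differences were 10.04 ± 0.72, 10.53 ± 0.66 and 8.34 ± 1.07 (edgeR adjusted p = 1.4e-15, 1.94e-17 and 6.53e-08). Cnn1, calponin, was at 15.5, 13.9, 0.886 and 0.741 in cluster 5 and at 39.5, 324.9, 467 and 338.95 in cluster 10, with the lowest cluster 10 value in the C57BL6 pair. Myocd, the coactivator of serum response factor that drives smooth muscle genes, was at 35.2, 0.603, 0 and 0.206 in cluster 5 and at 77.5, 188.5, 351 and 309.7 in cluster 10. The only cluster 5 pair with Myocd above 1 was C57BL6, and 1 of the 76 cells held 10 thinned reads. Itga8, an integrin of smooth muscle and mesangium, had 1 read in the 51 cells of cluster 5 and 2682 reads in cluster 10, a ratio of 4812 with a counting interval of 863 to 190131. Of the list, 3 genes had the higher fitted level in cluster 5, and 1 of them was called. Tpm4, the non-muscle tropomyosin, was at 250.6, 411, 307.8 and 349.9 in cluster 5 and at 64, 49, 26.4 and 115.5 in cluster 10, a log2 difference of -2.63 ± 0.71 (edgeR adjusted p = 0.015). Of the 38 genes of the contractile list, 22 were called higher in cluster 10, 1 was called higher in cluster 5 and 2 were carried by both, beside 2.62%, 1.92% and 2.51% of all genes tested, and the median log2 difference was 2.43. Tpm4 lost its call without plate 074s, 515s or 881s (edgeR adjusted p = 0.0672 to 0.0876). The call of Tpm4 ended with sums per strain (edgeR adjusted p = 0.809) and that of Tpm4 with DESeq2 (DESeq2 adjusted p = 0.0576).

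Most called genes of calcium and potassium handling were near 0 in cluster 5. Of 28 genes tested, 12 were called higher in cluster 10 and 1 in cluster 5, beside 2.62% and 1.92% of all genes tested, with a median log2 difference of 5.88, or 5.13 with the 3 genes at 0 reads in a class set to their bound. Pln, phospholamban, which was counted in the contractile list and restrains the calcium pump of the sarcoplasmic reticulum, was at 0, 0.301, 0 and 0.859 in cluster 5 and at 76.1, 292.2, 303.01 and 543 in cluster 10, and Gm47644 shares 59.59% of its exon bases on the opposite strand. Atp2a2, that pump, was at 9.49, 74, 0 and 48.7 in cluster 5 and at 202.2, 263.3, 255.04 and 153.5 in cluster 10, and was called with 3.91 ± 1.02 (edgeR adjusted p = 0.0115). Kcnmb1 and Kcnma1 are the subunits of the large-conductance potassium channel that relaxes smooth muscle. Kcnmb1 was at 0, 0, 0 and 2.99 in cluster 5 and at 417, 211.1, 108.4 and 112.3 in cluster 10, and Kcnma1 had 1 read in cluster 5 against 355. Cacna1c, the pore of the L-type calcium channel, was at 1.86, 0, 0 and 0 in cluster 5 and at 38, 73.5, 61.4 and 56.5 in cluster 10. Cacna1h, a T-type channel, had 0 reads in cluster 5 and 665 in cluster 10, at least 398-fold higher against a floor of 3 reads over the class, although plate 074s had only 1.07. Kcnj8 and Abcc9, which form the ATP-sensitive potassium channel of pericytes, varied between pairs in cluster 10. Kcnj8 was at 0.0711, 0.301, 0 and 2.6 in cluster 5 and at 510.2, 0, 24.9 and 94 in cluster 10, and was thus not found in the 4 cells of cluster 10 on plate 074s. Abcc9 was at 1.32, 3.34, 0 and 2.43 in cluster 5 and at 577, 77.7, 16.7 and 47.3 in cluster 10, and at 43 to 64.5 in the other fibroblasts, above cluster 5 in every pair. Gap junction genes were split between the classes. Gja4, a connexin of arteries, was at 0.178, 1.21, 0 and 1.05 in cluster 5 and at 0, 463, 396 and 326.3 in cluster 10, with 0 in the 3 C57BL6 cells, and Gja1, the most widespread connexin, was at 51.9, 78.2, 20.1 and 95.8 in cluster 5 and at 1.46, 1.98, 0 and 1.09 in cluster 10 (edgeR adjusted p = 2.14e-06 and 0.0174). Gja1 was the only gene of this list called higher in cluster 5. Gja1 lost its call without plate 074s, 515s or 881s (edgeR adjusted p = 0.0616 to 0.2), Kcnma1 without the C57BL6 pair or plate 074s or 881s (edgeR adjusted p = 0.0744 to 0.152), Cacna1c without plate 881s (edgeR adjusted p = 0.0794), Cacna1h without the C57BL6 pair (edgeR adjusted p = 0.0806), Kcnj8 without the C57BL6 pair (edgeR adjusted p = 0.392), Abcc9 without the C57BL6 pair (edgeR adjusted p = 0.13) and Atp2a2 without the C57BL6 pair or plate 515s (edgeR adjusted p = 0.202 to 0.21). The calls of Gja1, Kcnma1, Cacna1c and Atp2a2 ended with sums per strain (edgeR adjusted p = 0.237 to 0.607), that of Atp2a2 without the replicate block (edgeR adjusted p = 0.0697) and that of Kcnj8 with limma (limma adjusted p = 0.1).

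Receptors and enzymes of vascular tone divided into a cluster 10 set and a cluster 5 set. Of 30 tested genes of this list, 8 were called higher in cluster 10 and 3 in cluster 5 (2.62% and 1.92% over all genes), and 19 further genes of the list had too few reads to test. Rgs5 and Rgs4, which shorten G protein signals, had a high mean level in cluster 10, Rgs5 at 1116, 796, 95.7 and 839 and Rgs4 at 399, 1082, 825 and 687. The Rgs5 level came from a minority of the cells, since 10 thinned reads were found in 30.4% of cluster 10 and the median cell was at 4.12, and the 3 C57BL6 cells were at 0, 73.3 and 3274. Rgs4 had 10 reads in 76.8% of the cells. In cluster 5 neither gene was above 1.55 in any pair. Gucy1a1 and Gucy1b1 encode the subunits of soluble guanylate cyclase, the nitric oxide receptor. Gucy1a1 was at 6.65, 8.88, 4.94 and 25.2 in cluster 5 and at 742, 617, 751 and 467 in cluster 10, and Gucy1b1 at 8.73, 1.39, 0 and 1.43 in cluster 5 and at 435, 165.004, 105.1 and 133.6 in cluster 10. Gucy1a1 was at 152.1 to 238.5 in the other fibroblasts, so cluster 5 was below them in every pair. Ednra, the endothelin receptor of smooth muscle, had the smallest difference of the 8 genes. It was at 1.3, 35.7, 10.6 and 123.5 in cluster 5 and at 308.8, 407, 194.4 and 344.2 in cluster 10, a log2 difference of 4.28 ± 0.91 (edgeR adjusted p = 0.000999), and 18 of 76 cells of cluster 5 and 55.2% of cluster 10 held 10 reads. P2rx1, the ATP-gated channel of smooth muscle, was at 0, 338.4, 255.4 and 152.8 in cluster 10, Ptgir, the prostacyclin receptor, at 307.9, 2.28, 67.8 and 52, and Pde3a, a cyclic nucleotide phosphodiesterase, at 307.2, 50.6, 354 and 358, each called. The C57BL6 cells had no P2rx1 and plate 074s almost no Ptgir. Cluster 5 instead carried Avpr1a, a vasopressin receptor that raises calcium, at 224.4, 163.2, 837 and 261.4 against 0, 0.307, 15.2 and 2.36 in cluster 10 (log2 difference -6.78 ± 0.92, edgeR adjusted p = 2.11e-07). Mc5r, a melanocortin receptor, was at 65.2, 22.3, 1.31 and 119.5 in cluster 5 and at 1, 0, 0 and 0.468 in cluster 10, with 10 reads in 28 of 76 cells of cluster 5 and in no cell of cluster 10, where the limit of 3 counts is 2.4% (exact upper bound 2.91%). Ptgs1, the constitutive cyclooxygenase, was at 87.9, 84.9, 253.7 and 126.4 in cluster 5 and at 9.32, 0.534, 0.245 and 1.24 in cluster 10 (log2 difference -6.33 ± 1.34, edgeR adjusted p = 0.000954). Ptgir lost its call without the C57BL6 pair or plate 515s or 881s (edgeR adjusted p = 0.163 to 0.381), Mc5r without plate 074s or 881s (edgeR adjusted p = 0.0505 to 0.329) and Ptgs1 without plate 515s (edgeR adjusted p = 0.0719). The calls of Mc5r and Ptgs1 ended with sums per strain (edgeR adjusted p = 0.253 to 0.369), that of Ednra without the replicate block (edgeR adjusted p = 0.064) and those of Ptgir and Mc5r with limma (limma adjusted p = 0.0573 to 0.0739).

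Notch genes were called in 1 direction. Of 13 tested, 7 were higher in cluster 10 and none in cluster 5, beside 2.62% and 1.92% of all genes tested. Notch3, the receptor of mural cells, was at 2.11, 0, 0 and 0.572 in cluster 5 and at 316.2, 435, 298.4 and 331.5 in cluster 10 (log2 difference 9.69 ± 1.05, edgeR adjusted p = 6.19e-10). Jag1, a ligand, was at 0, 0.301, 0 and 5.16 in cluster 5 and at 62.9, 116.1, 9.26 and 118.8 in cluster 10. Of the target genes, Heyl was at 1.53, 1.3, 0.973 and 3.09 in cluster 5 and at 231.02, 322.5, 143.1 and 234.5 in cluster 10, and Hes1 at 39.5, 31.6, 12.1 and 21.8 in cluster 5 and at 125.1, 344.1, 366 and 428 in cluster 10. The other fibroblasts had 43.6 to 65 of Heyl and 56.2 to 87.4 of Hes1, above cluster 5 in every pair. Hey2 had 3 reads in cluster 5 and 1733 in cluster 10, and Nrarp, a feedback inhibitor, had 1 and 1136, with no read in the C57BL6 cells of cluster 10. The antisense gene Gm38287 shares 79.43% of the exon bases of Nrarp, so the reads of Nrarp are uncertain. Notch1 was at 16.8, 0.759, 0.437 and 1.27 in cluster 5 and at 199.8, 82.9, 34.7 and 92.2 in cluster 10 (edgeR adjusted p = 0.0032). Nrarp lost its call without plate 074s or 881s (edgeR adjusted p = 0.0647 to 0.224), Jag1 without plate 074s (edgeR adjusted p = 0.108) and Notch1 without plate 881s (edgeR adjusted p = 0.102). The calls of Nrarp, Jag1 and Notch1 ended with sums per strain (edgeR adjusted p = 0.117 to 0.478) and that of Nrarp with limma (limma adjusted p = 0.0748). Both Heyl and Hes1 were thus lowest in cluster 5 of the 3 groups of cells.

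**Figure D4:**
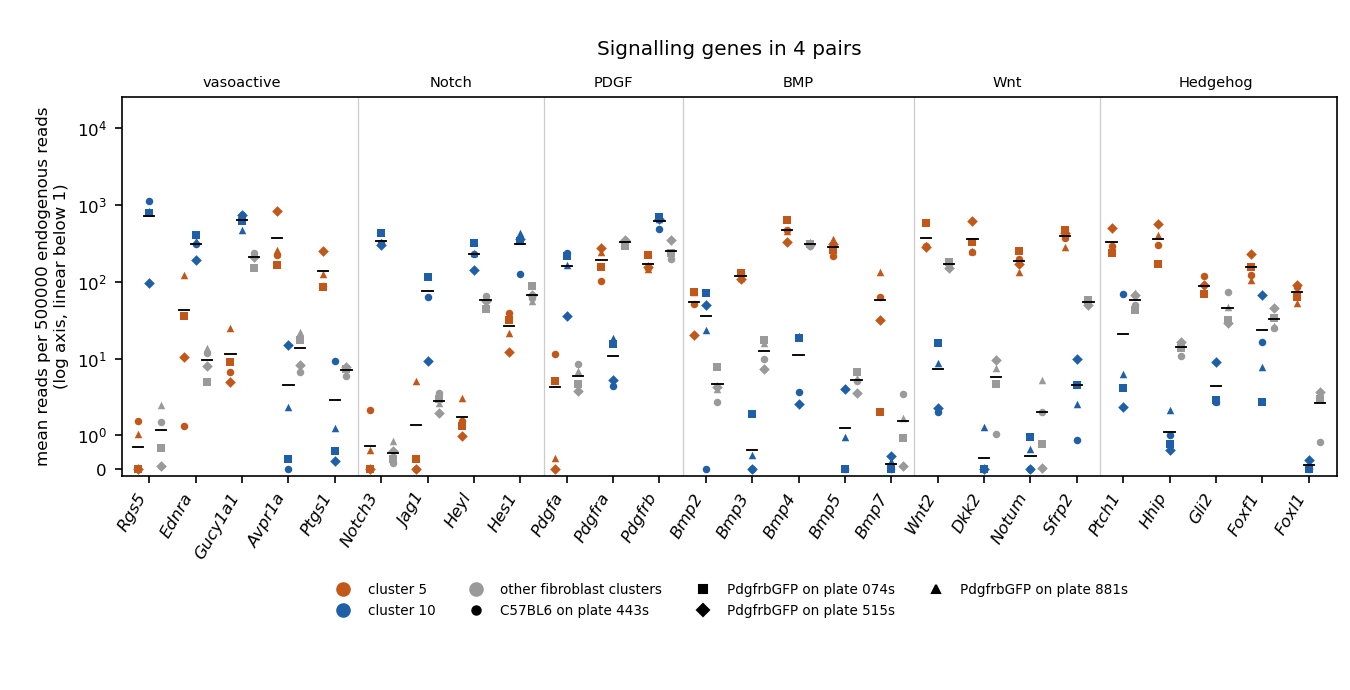
Mean level of signalling genes, in reads per 500000 endogenous reads on a logarithmic axis that is linear below 1, with classes, symbols and bars for pairs and means as in the plot of contractile genes. Vasoactive and Notch genes were high in cluster 10 save Avpr1a and Ptgs1, whereas Bmp3, Bmp4, Bmp5, Dkk2, Notum, Hhip and Foxl1 were high in cluster 5, and Bmp2 overlapped between the classes.

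Ligands and receptors of PDGF were split. Pdgfra, the fibroblast receptor, was at 102.8, 156.6, 274.1 and 245.7 in cluster 5 and at 4.34, 15.5, 5.26 and 18.4 in cluster 10 (log2 difference -4.24 ± 0.95, edgeR adjusted p = 0.00197). The other fibroblasts had 291.7 to 352, more than cluster 5 in every pair. Pdgfrb, whose reporter was used to sort 3 of the 4 pairs, was at 152.8, 222.1, 158.2 and 145.4 in cluster 5 and at 492, 697, 655 and 654 in cluster 10, and its log2 difference of 1.99 ± 0.49 (edgeR adjusted p = 0.00641) lay just under the 4-fold limit, so it was not called. Outside the pairs, cluster 10 held Pdgfrb at 575.7 and 186.6 in Cspg4dsRED on plates 689s and 352s and at 348.1 in Acta2GFP. The PdgfraGFP cells of cluster 5 held it at 256.5. At least 10 thinned reads of Pdgfrb were found in 97.8% of the PdgfrbGFP cells of cluster 10 and in 40% of its Cspg4dsRED cells. Its level in cluster 10 thus differed between the sorted strains. Pdgfa, a ligand of Pdgfra, was at 11.4, 5.12, 0 and 0.326 in cluster 5 and at 235.4, 216.04, 36.2 and 163.3 in cluster 10 (log2 difference 6.83 ± 1.20, edgeR adjusted p = 5.1e-05). The antisense gene 6330403L08Rik shares 26.07% of the exon bases of Pdgfa. Pdgfrl, a receptor-like protein, was called higher in cluster 5, at 29.7, 95.2, 180.9 and 92.4 against 0, 3.34, 0.402 and 48.4. Pdgfra lost its call without plate 515s (edgeR adjusted p = 0.0612) and Pdgfrl without the C57BL6 pair or plate 074s or 515s (edgeR adjusted p = 0.105 to 0.369). The calls of Pdgfra and Pdgfrl ended with sums per strain (edgeR adjusted p = 0.439 to 1), that of Pdgfrl without the replicate block (edgeR adjusted p = 0.132) and that of Pdgfrl with the median difference set to 0 (edgeR adjusted p = 0.0686). Pdgfd, a ligand of Pdgfrb, was at 148.6, 82.2, 148.8 and 118.5 in cluster 5 and at 1, 44.7, 54.3 and 28.6 in cluster 10 and was not called (-4.24 to 0.09).

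Of 24 BMP genes tested, 4 were called higher in cluster 5, all of them ligands, and 1 higher in cluster 10 (1.92% and 2.62% over all genes). Bmp5 was at 214.9, 261.6, 315.9 and 359.9 in cluster 5, at 0, 0, 4.04 and 0.934 in cluster 10 and at 3.57 to 6.67 in the other fibroblasts (log2 difference -8.30 ± 1.08, edgeR adjusted p = 9.79e-08). Bmp3 was at 130.9, 128.4, 108.8 and 110.9 in cluster 5 and at 0, 1.87, 0 and 0.428 in cluster 10, and Bmp4 at 472, 642, 327.6 and 462 in cluster 5 and at 3.62, 18.8, 2.54 and 19.8 in cluster 10. Bmp4 was at 290.6 to 330.4 in the other fibroblasts. Bmp7 was at 63.7, 2, 31.4 and 132.7 in cluster 5 and at 0, 0, 0.402 and 0.243 in cluster 10, low on plate 074s, and was called (edgeR adjusted p = 0.00853). Bmp2 was present in both, at 52.1, 72.6, 20.5 and 73.4 in cluster 5 and at 0, 71.3, 50.3 and 23.3 in cluster 10, and at 2.7 to 7.78 in the other fibroblasts. Its log2 difference was -0.88, but the interval of -3.65 to 1.90 was too wide to say that the classes carried it alike, and no read was found in the 3 C57BL6 cells. Id2, a target of BMP signals, was at 11.8, 2.86, 17 and 6.54 in cluster 5 and at 246.1, 190.2, 349.6 and 150.2 in cluster 10, the only gene of this list that was called higher in cluster 10. Bmp7 lost its call without plate 881s (edgeR adjusted p = 0.261). The call of Bmp3 ended with sums per strain (edgeR adjusted p = 0.607). The antisense gene Gm26903 shares 46.7% of the exon bases of Bmp5, and its reads could not be told apart from those of Bmp5 there.

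Of 23 Wnt genes tested, 6 were called, and of 12 Hedgehog genes 6, each of them higher in cluster 5, beside 1.92% of all genes. The other 17 Wnt and 6 Hedgehog genes were not called. Dkk2, a secreted Wnt antagonist, was at 248.3, 326.7, 619 and 253.9 in cluster 5 and at 0, 0, 0 and 1.29 in cluster 10, and at 1.05 to 9.51 in the other fibroblasts (log2 difference -10.15 ± 1.13, edgeR adjusted p = 1.24e-09). Notum, which removes the lipid of Wnt ligands, was at 196.3, 252.1, 170.4 and 135.2 in cluster 5 and at 0, 0.933, 0 and 0.584 in cluster 10, and Sfrp2, which binds them, at 378, 473, 438 and 280.9 in cluster 5 and at 0.873, 4.48, 9.94 and 2.58 in cluster 10. Dkk3 was at 839, 1071, 1645 and 769 in cluster 5 and at 4.63, 31.4, 4.13 and 23.8 in cluster 10. The ligand Wnt2 was at 297.4, 593, 287.9 and 302.7 in cluster 5 and at 2.01, 15.8, 2.23 and 8.84 in cluster 10 and the receptor Fzd1 at 295.6, 179.6, 246.02 and 211.1 in cluster 5 and at 2.01, 22.4, 3.77 and 18.9 in cluster 10, against 150.6 to 179.9 and 182.4 to 239.8 in the other fibroblasts. For Notum, Sfrp2 and Dkk3 the other fibroblasts had 0.0408 to 5.19, 49.9 to 57.9 and 339.1 to 470.5. The antisense gene Notumos shares 29.4% of the exon bases of Notum, and Gm26771 16.12% of those of Sfrp2. Nkd1, an intracellular Wnt inhibitor and target, was chosen for mention after its values were seen. It was at 186.8, 171.3, 305.1 and 111.8 in cluster 5, 12.6, 252.1, 296.4 and 115.01 in cluster 10 and 4.28 to 17.7 in the other fibroblasts, with a log2 difference of -0.39 (-1.92 to 1.14). The call of Fzd1 ended with sums per strain (edgeR adjusted p = 0.243).

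All 12 tested Hedgehog genes had a lower fitted level in cluster 10. Hhip, a ligand trap and target of the pathway, was at 305.2, 168.9, 575 and 409 in cluster 5, at 1, 0.736, 0.58 and 2.11 in cluster 10 and at 10.7 to 16.6 in the other fibroblasts (log2 difference -8.38 ± 0.96, edgeR adjusted p = 3.23e-09). Ptch1, the receptor and also a target, was at 297.2, 240.1, 499.7 and 284.1 in cluster 5 and at 69.8, 4.09, 2.33 and 6.26 in cluster 10, with its highest cluster 10 value in the C57BL6 cells. The transcription factors Gli2, Foxf1, Foxf2 and Foxl1 were called too. Gli2 was at 118.7, 68.7, 91.3 and 74.2 in cluster 5 and at 2.75, 2.91, 9.05 and 2.77 in cluster 10, Foxf1 at 122.6, 154.7, 231.3 and 106.2 in cluster 5 and at 16.6, 2.71, 68.2 and 7.81 in cluster 10 and Foxl1 at 84.5, 63.8, 91 and 52.6 in cluster 5 and at 0, 0, 0.277 and 0.192 in cluster 10. Foxl1 was at 0.805 to 3.61 in the other fibroblasts. Foxf2 had 1714 reads in cluster 5 and 3 in cluster 10. Gli2 lost its call without plate 074s, 515s or 881s (edgeR adjusted p = 0.0818 to 0.181), Foxf1 without plate 074s, 515s or 881s (edgeR adjusted p = 0.123 to 0.304) and Foxf2 without plate 074s, 515s or 881s (edgeR adjusted p = 0.0901 to 0.142). The calls of Gli2, Foxf1, Foxf2, Ptch1 and Foxl1 ended with sums per strain (edgeR adjusted p = 0.193 to 0.842), that of Foxf1 without the replicate block (edgeR adjusted p = 0.0649), that of Foxf1 with the median difference set to 0 (edgeR adjusted p = 0.0931) and that of Foxf1 with median-of-ratios scaling (edgeR adjusted p = 0.0621). The median log2 difference of the list was -3.03, against -0.28 over all genes.

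In the TGF-beta list 3 of 15 tested genes were called, and in the list of FGF and IGF genes 3 of 15, beside 4.54% of all genes. Ltbp1, which holds latent TGF-beta in the matrix, was at 4.28, 71.2, 1.86 and 10.2 in cluster 5 and at 469.9, 746, 701 and 859 in cluster 10 (log2 difference 6.37 ± 0.75, edgeR adjusted p = 8.16e-09). Tgfbi, a matrix protein named for its induction by TGF-beta, was at 743, 1081, 1297 and 799 in cluster 5 and at 2.88, 17.5, 3.89 and 10.4 in cluster 10 (log2 difference -7.03 ± 0.61, edgeR adjusted p = 6.34e-13). Fgf1 was at 0, 0.375, 6.11 and 3.97 in cluster 5 and at 58.5, 96.3, 144.8 and 124.96 in cluster 10, and Inhba, an activin subunit, had 1 read in cluster 5, against which the ratio was 603 with a counting interval of 107.5 to 23881. Outside the pairs, Inhba was near 0 in the Cspg4dsRED cells of cluster 10, at 0.182 on plate 689s and 1.63 on plate 352s. In the Acta2GFP cells of cluster 10 it was at 30.6. Of the IGF binding proteins, Igfbp7 was carried by both at 532, 878, 620.4 and 648 in cluster 5 and at 1404, 1816, 1154 and 1251 in cluster 10 (0.65 to 1.92), Igfbp5 was called higher in cluster 10 at 3.38, 0.597, 0 and 0.568 in cluster 5 and at 171.6, 5.27, 39.3 and 30.6 in cluster 10, and Igfbp6 higher in cluster 5 at 446, 473, 266.4 and 485 in cluster 5 and at 27.8, 138.5, 21.9 and 114.05 in cluster 10. Inhba lost its call without any 1 of the 4 pairs (edgeR adjusted p = 0.0564 to 0.395), Igfbp5 without the C57BL6 pair or plate 515s or 881s (edgeR adjusted p = 0.136 to 0.181) and Igfbp6 without plate 881s (edgeR adjusted p = 0.0726). The calls of Inhba, Igfbp5 and Fgf1 ended with sums per strain (edgeR adjusted p = 0.0922 to 0.607), those of Inhba and Igfbp5 with limma (limma adjusted p = 0.0505 to 0.0778), that of Igfbp6 with DESeq2 (DESeq2 adjusted p = 0.0537), that of Inhba with thinned cells (edgeR adjusted p = 0.0881) and that of Inhba without the filter (edgeR adjusted p = 0.0647). Igfbp7 was the only one of the tested signalling genes that met the rule for genes carried by both. It was still higher in cluster 10 in every pair, its interval lay above 0, and the ranges of the classes did not overlap.

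Surface and matrix genes placed the classes apart as well. Tnc was at 486, 418, 809 and 578 in cluster 5, at 1, 0.307, 21.3 and 0.978 in cluster 10 and at 0.117 to 3.33 in the other fibroblasts (log2 difference -8.15 ± 0.83, edgeR adjusted p = 9.53e-11), and in cluster 10 only 1 cell, of PdgfrbGFP, had 10 reads. Col1a1, a chain of collagen I, was at 7028, 6564, 9297 and 5191 in cluster 5 and at 323.7, 408, 189.7 and 465 in cluster 10, and Fn1, fibronectin, at 837, 1138, 1107 and 860.3 in cluster 5 and at 10.6, 11.4, 21.8 and 21 in cluster 10. The chemokine Cxcl14 was at 625, 836, 912 and 846 in cluster 5 and at 4.02, 8.06, 2.77 and 8.54 in cluster 10. Of the 16 genes of the fibroblast matrix list, 7 were called, each higher in cluster 5, beside 1.92% of all genes. Of all 16, 4 had a higher fitted level in cluster 10. Cd34, a general surface marker of fibroblasts, was low in both, at 145.4, 148.3, 47.2 and 108.2 in cluster 5 and 17.7, 136.4, 16.8 and 80 in cluster 10 against 791 to 1431 in the other fibroblasts, and its log2 difference of -1.03 (-2.95 to 0.89) was not called. Lum, a fibroblast proteoglycan, was at 21.1, 90.7, 62.9 and 112.1 in cluster 5 and at 17.2, 109.4, 28.8 and 112.6 in cluster 10 against 799.8 to 1404. For these 2 genes, both classes lay below the other fibroblasts in every pair. The whole list summed to 18896 to 26718 in cluster 5, 1362 to 4081 in cluster 10 and 20729 to 27531 in the other fibroblasts, so that the sums of cluster 5 and the other fibroblasts overlapped. Mcam, an adhesion molecule of mural cells, was at 0.331, 0.942, 0.98 and 0.554 in cluster 5 and at 101.4, 212.6, 934 and 382 in cluster 10, and Cspg4, the proteoglycan NG2, at 0.136, 3.13, 10.2 and 3.4 in cluster 5 and at 160.9, 70.3, 283.5 and 177.7 in cluster 10 (edgeR adjusted p = 2.37e-10 and 0.000695). Of 18 basement membrane and mural matrix genes tested, 4 were called and 4 were carried by both, beside 4.54% and 2.51% of all genes. Itga1 and Itga7, integrins that bind basement membrane, and the laminin chain Lama5 were higher in cluster 10, with log2 differences of 6.21, 9.78 and 9.18, and the laminin chain Lama2 was higher in cluster 5, with -3.22. Lama2 lost its call without plate 074s, 515s or 881s (edgeR adjusted p = 0.155 to 0.311). The calls of Lama2 and Itga1 ended with sums per strain (edgeR adjusted p = 0.174 to 0.843), that of Lama2 without the replicate block (edgeR adjusted p = 0.222), that of Lama2 with the median difference set to 0 (edgeR adjusted p = 0.0998) and that of Lama2 with median-of-ratios scaling (edgeR adjusted p = 0.0723). Of the same list, Col4a2, Lamb2, Hspg2 and Itgb1 were carried by both, with log2 differences of -0.45, 0.59, -0.76 and 1.04.

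Over all genes, the 10 largest called differences with 1 direction in every pair lay between a class with reads and one with few or none. In cluster 10 they were the diacylglycerol kinase Dgkb, the Z-band protein Ldb3, Tmem182, Itga8, Rasl12, the hypoxia-related cytochrome oxidase subunit Cox4i2, the sphingosine receptor S1pr3, the bicarbonate transporter Slc4a8, the olfactory receptor Olfr558 and Cacna1h. S1pr3 was at 0, 0.375, 0 and 0.68 in cluster 5 and at 321.4, 736, 462 and 434 in cluster 10, and Rasl12 was at 0.109, 0, 0 and 0.077 in cluster 5 and at 136.05, 400.4, 389 and 205.1 in cluster 10. Ldb3, Tmem182, Slc4a8 and Cacna1h had 0 reads in cluster 5, at least 1368-, 327.1-, 434- and 398-fold higher in cluster 10, although most of the Tmem182 reads came from the C57BL6 cells, at 323.2, 6.53, 0.772 and 15.4. In cluster 5 the named ones were Moxd1, a copper monooxygenase, AI593442, the amino acid transporter Slc16a10, Dkk2, Tmeff1, Col11a1, Bend5, the retinoic acid synthesising enzyme Aldh1a2 and Lacc1, beside 1 gene without a symbol in the annotation. In the PdgfraGFP cells of cluster 5, outside the pairs, Bend5 was at 0.371 and Lacc1 at 0.271. Bend5 was at 5.26 in the Cspg4dsRED cells of cluster 10 on plate 352s. The other named ones ran from 5.51 for Tmeff1 to 453 for Aldh1a2 in these PdgfraGFP cells. Moxd1 was at 74.5, 97.9, 194.5 and 72 in cluster 5 with 0 reads in cluster 10, at least 568-fold higher. Aldh1a2 was at 201.3, 94.4, 584 and 347 in cluster 5 and at 0, 0, 0.112 and 1.12 in cluster 10. AI593442 lost its call without the C57BL6 pair or plate 881s (edgeR adjusted p = 0.08 to 0.135), Slc16a10 without any 1 of the 4 pairs (edgeR adjusted p = 0.0605 to 0.266), Tmeff1 without any 1 of the 4 pairs (edgeR adjusted p = 0.092 to 0.38), Bend5 without any 1 of the 4 pairs (edgeR adjusted p = 0.0836 to 0.245), Lacc1 without any 1 of the 4 pairs (edgeR adjusted p = 0.119 to 0.295), Col11a1 without plate 881s (edgeR adjusted p = 0.156) and Tmem182 without the C57BL6 pair (edgeR adjusted p = 0.186). The calls of AI593442, Slc16a10, Bend5, Lacc1, Col11a1 and Slc4a8 ended with sums per strain (edgeR adjusted p = 0.0896 to 1), those of Tmeff1 and Tmem182 with limma (limma adjusted p = 0.0936 to 0.0965), those of Slc16a10, Tmeff1, Bend5 and Lacc1 with thinned cells (edgeR adjusted p = 0.0553 to 0.118), that of Tmeff1 with the median difference set to 0 (edgeR adjusted p = 0.0552) and that of Tmeff1 without the filter (edgeR adjusted p = 0.0525). Of the 560 called genes, 26 had 0 reads in cluster 5 and 10 had 0 reads in cluster 10.

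Immediate-early genes, which are induced within minutes by growth factors and by tissue dissociation, moved with the classes. All 12 had a higher fitted level in cluster 10 and 10 were called, beside 2.62% of all genes called higher in cluster 10. Fos was at 786, 511, 174.3 and 278.7 in cluster 5, at 1697, 2709, 5065 and 2203 in cluster 10 and at 1173 to 1487 in the other fibroblasts. Nr4a1 was at 234.1, 59.9, 84.8 and 52.4 in cluster 5, at 330.9, 1846, 5128 and 1702 in cluster 10 and at 483 to 807 in the other fibroblasts. Their summed level was 1111 to 3402 in cluster 5, 7036 to 23733 in cluster 10 and 5577 to 7102 in the other fibroblasts. Serum response factor also acts on some of these genes, and their part in the difference of the contractile genes was not tested. RNA content and the mitochondrial share moved with the classes too, and their part in the differences was not tested. By class medians, cluster 10 had fewer endogenous reads per spike-in read than cluster 5 in 4 of 4 pairs, and by class means in 3 of 4 (exact permutation p = 0.25), with a mean difference of the medians of -0.59 ± 0.22 on the log2 scale (SD, n = 4 pairs, a two-sided exact sign-flip permutation test over 4 pairs cannot reach 0.05). Genes detected per cell differed by -0.24 ± 0.17 in the same direction in 4 of 4 pairs, and by -0.25 after thinning, where the difference had this direction in 3 of 4 pairs and plate 074s was slightly the other way (exact permutation p = 0.25). The mitochondrial share of reads was higher in cluster 10 in 4 of 4 pairs, by 0.52 ± 0.31 on the log2 scale of the class medians (SD, n = 4 pairs). The median number of endogenous reads was 256725 in cluster 5 and 128369 in cluster 10 over all plates, and no cell of either class had fewer than 50000.

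The reporter lines contributed unequally to the classes. None of the Acta2GFP cells was in cluster 5, where the limit of 3 counts is a share of 2.33% (exact upper bound 2.82%), and 12 (9.30%, exact 95% interval 4.90 to 15.7) were in cluster 10. Of the PdgfraGFP cells, 22 (14.97%, 9.62 to 21.8) were in cluster 5 and 0 in cluster 10, where that limit is 2.04% (exact upper bound 2.48%). Of the Cspg4dsRED cells, 3 were in cluster 5 (1.48%, 0.306 to 4.26) and 65 in cluster 10 (32.02%, 25.7 to 38.9). In PdgfrbGFP, 36 and 45 of 810 cells were in cluster 5 and cluster 10, and in C57BL6 15 and 3 of 190. These shares are shares of sorted cells. The 22 PdgfraGFP cells of cluster 5 held Acta2 at a mean of 468, and 12 of them had 10 thinned reads (54.5%, 32.2 to 75.6).

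On plate 689s these 22 cells could be set beside 16 Cspg4dsRED cells of cluster 10, none of which entered the test. This comparison was chosen after the results were known, has 1 sample a class and differs in reporter line, so it gives values only. The cluster numbers of these cells were also made from the same expression values. Agreement in direction was therefore in part fixed in advance and is not independent evidence. Of the 560 called genes, 549 had the same direction there and 480 also differed by 4-fold or more on the log2(level + 1) scale, as did 2109 genes higher in cluster 10 and 2665 higher in cluster 5 of all 12339. Myh11 was at 48.1 in the cluster 5 cells and 1622 in the cluster 10 cells, Acta2 at 468 and 5031, and Des at 0.494 and 990.2. Markers of other cell types were present in these cells, and their part in the values was not tested. The urothelial markers summed to 138.7 in the cluster 5 cells and 99.4 in the cluster 10 cells, and the endothelial markers to 57.4 and 210.3. The immune markers summed to 40.4 and 37.1, the glial and interstitial to 0.769 and 32.8 and the mesothelial to 21.6 and 6.8. Tnc was at 1192 and 0, Dkk2 at 449 and 0, and Palld at 347 and 452. The 7 cells of cluster 5 with a cluster 10 cell in an adjoining well had a mean Myh11 level of 18.4, and the other 69 cells 55.6. For Acta2 these means were 262.6 and 507.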

How the data were processed

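Single cells of mouse bladder were sequenced by Smart-seq2, and the authors deposited 1 table of raw read counts per gene and cell. The submitters' processing notes name bcl2fastq, Bowtie2, featureCounts of Subread and the build GRCm38 (mm10). The library kit does not mark strand, and 45 of 126 genes named here share exon bases with another gene. Spike-in rows were kept out of library sizes. The cells and their classes came from the labels, 76 cells of cluster 5 and 125 of cluster 10, together 201 of 1479. No 2 cells held identical counts, and no doublet caller was run here, where the authors had dropped cells with very many genes as likely doublets, and the members and gene lists were chosen with earlier results of these data known.

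Counts were summed per class, strain and plate in the 4 pairs and compared with edgeR 4.0.16 (R 4.3.3; quasi-likelihood test, TMM scaling, pair as a block, Benjamini-Hochberg adjustment over 12339 genes), which called 323 genes higher in cluster 10 and 237 higher in cluster 5. A call needed an adjusted p under 0.05 and an absolute log2 difference of at least 2. A gene carried by both had a level of at least 20 in both classes of every pair and a 95% interval inside the same limit. Pairs are sums from the same strain and plate by the labels, and deviations of same-pair sums correlated by 0.019 to 0.078, above every other pair. The p-values measure only the spread between these samples, which may be technical. Without molecular identifiers, copies of 1 molecule are counted as separate reads. The counting intervals therefore cover the counting of reads only, and not of molecules or the spread between cells. On simulated data with 10932 genes, 55.1% of genes changed by 6 on the log2 scale reached an adjusted p under 0.05. Of those changed by 3, 5.05% did, and 0 unchanged genes were called. The changed genes were drawn from genes with higher mean counts, so these shares do not cover genes with few reads. Named genes were those the study names for these cells, the 10 with the largest called difference of 1 direction in every pair, those high in both, and, of the lists, called genes, genes carried by both and the 4 differences nearest 0. Some further list genes that were not called were named beside them. The 2-sided exact sign-flip permutation test over 4 pairs gave p = 0.125, the smallest it can give, for endogenous reads per spike-in read and for genes detected. Alternatives were DESeq2 1.42.0, limma 3.58.1, other scalings, filters, thresholds and depths, sums per strain, other fibroblasts in the fit, no block and leaving out each pair.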

Additional observations from a re-analysis of the deposited data

Results flagged for a closer look

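For each named gene the log2 difference of the mean levels plus 1 was set out over the 4 pairs, and 12 genes had 1 pair far from the other 3, where chance flags about 1 in 20 groups. On plate 515s Des stood apart at 9.75, Itga8 at 7.69 and Tnc at -5.18. In the C57BL6 pair, with 3 cells of cluster 10, Cacna1c stood apart at 3.77, Abcc9 at 7.96, Ldb3 at 5.39, Gja4 at -0.24, Tmeff1 at -0.22, Nkd1 at -3.79 and Lox at -5.14. On plate 074s, with 4 cells of cluster 10, Id2 stood apart at 5.63 and Slc16a10 at -2.26. In 3 genes the C57BL6 pair went the opposite way from all 3 PdgfrbGFP pairs, Actg2 at -0.49 and Gja4 at -0.24, each lower in cluster 10 in C57BL6 only, and Col4a2 at 1.02, higher in cluster 10 in C57BL6 only. With 1 C57BL6 pair this difference between strains was not tested.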

How the results depend on the processing

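Counts of called genes moved with the processing, and none of the 560 calls that had a value changed direction under any alternative fit, where 499 had a value without the replicate block and 555 to 560 in the others. DESeq2 gave 270.2% of the main count (242.7% of those higher in cluster 10 and 307.6% of those higher in cluster 5), the fit with the other fibroblasts 185.4% (163.2% and 215.6%), and sums per strain 43.6% (47.4% and 38.4%), with 27 signalling genes in place of 44. The count of genes carried by both was 46.1% of 310 with DESeq2, 180.97% with limma, 175.5% with the other fibroblasts in the fit, 36.8% with sums per strain and 2.90% with intervals inside 2-fold. Leaving out each pair in turn gave 57.3 to 84.3% of all calls, 59.1 to 85.1% of those higher in cluster 10, 54.9 to 83.1% of those higher in cluster 5, 27 to 32 contractile and ion handling calls, 33 to 43 signalling calls and 30 to 217.4% of the genes carried by both. The largest loss of calls came without plate 881s, which holds 24 and 20 cells. Without the replicate block 560 genes were called, 451 of them also called with it, and 48.9% rather than 57.7% were higher in cluster 10. That share was 43.2% with limma and 66.4% with the median gene set to 0. Vcl, carried by both and near 0 at 0.09, was at -0.24 with thinned cells, -0.31 with limma, -0.15 without the filter, -0.068 without the replicate block, -0.13 with sums per strain and -0.26 to 0.44 without 1 pair. Other genes that were not called also changed sign. Lum was at -0.30 with thinned cells, -0.28 with limma, -0.13 without the filter and -0.89 with sums per strain, Postn at -0.038 without the replicate block and -1.85 with sums per strain, Col4a2 at 0.11 with sums per strain and Itgav at -0.17 with thinned cells. Without 1 pair, Bmp2 ran from -1.97 to 0.063, Lum from -0.13 to 0.20, Postn from -2.05 to 2.62, Srf from -1.44 to 1.94, Nkd1 from -1.07 to 0.35 and Lamb2 from -0.13 to 1.08. The share of cluster 5 cells with Acta2 was 80.3% with 1 read in place of 10. Of the called genes named here, 2 lost their call with DESeq2, 8 with limma, 31 with sums per strain and 16 to 23 without 1 pair. The causes of these shifts were not tested. Cluster 10 rests on 3 and 4 cells in 2 of the 4 pairs, which limits what these pairs can show.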
